A study of Mus with 6 samples.

Results

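Mitochondrial ribosomal proteins are encoded in the nucleus, made in the cytosol and imported into mitochondria, where they build the ribosome that translates the few proteins encoded by mitochondrial DNA. Those proteins are all core subunits of the respiratory chain and of ATP synthase, so the mitochondrial ribosome serves oxidative phosphorylation and little else. It has a small subunit, which reads the message, and a large subunit, which forms the peptide bond. Some of its proteins descend from those of bacterial ribosomes and others exist only in mitochondria. The genes described here are all rows of the deposited table whose symbol begins with Mrpl or Mrps and a digit, 78 of 18887 rows, called MRP genes below. All 78 matched a protein-coding gene of the RefSeq table for GRCm38.p6, and they lie on 17 chromosomes.

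The libraries are RiboTag precipitates from whole mouse brain: a tagged ribosomal protein, placed in a chosen cell type, is pulled down with the mRNA on its ribosomes. The labels assign all of them to microglia, which are the brain's own macrophages, and give 2 control samples (genotype Ctr) and 4 samples titled IRKO (genotype KO). The marker levels given below do not bear out that assignment for the controls. IRKO is taken to mean insulin receptor knockout, which fits the series title, although the labels do not spell it out. The sources used here do not give strain, age, the Cre driver or whether a sample is 1 animal or a pool. The p-values therefore speak only to the scatter among these libraries, and some of it may be technical. The comparison asks how ribosome-bound MRP transcripts differ between control and IRKO precipitates.

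Depth lay between 13858978 and 19010680 recovered reads per library, and the test covered the 14698 genes that reached a normalized count of 10 in 2 or more samples. Insr, the insulin receptor gene, stood at 565 and 532 normalized counts in the control pair and at 290 to 366 in IRKO, a limma log2 change of −0.70 ± 0.135 (SE, adjusted p = 0.00211). Levels of cell type marker transcripts differed between the groups, and their part in the results below was not tested. All 25 astrocyte markers fell, their summed count running from 903568 to 1157972 in the controls and from 77611 to 113635 in IRKO. Of 36 homeostatic microglia markers 35 rose and 1 fell, Mertk, a phagocytic receptor that astrocytes also express. Their sum was 125752 to 158457 in the controls and 331340 to 460507 in IRKO, and no astrocyte or microglia marker was at 0 in any library. Astrocyte markers made up 6.10% and 4.91% of the total count in control replicates 1 and 2, and microglia markers 0.83% and 0.68%. In every IRKO library the microglia marker sum was the larger. Of 30 neuron markers 23 rose and none fell. Of 25 oligodendrocyte markers 15 rose and 3 fell, and of 27 endothelial and mural markers 11 rose and 4 fell. Red blood cell and liver genes summed to 83706 and 244202 in control replicates 1 and 2 and to 10894 to 20102 in IRKO. Of these genes 15 of 17 tested fell, and 1 rose, Trf, encoding transferrin, which oligodendrocytes also make. No input library is among the samples. In such precipitates fewer cells of a type, less RNA per cell and other origins of these marker differences cannot be told apart.

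On the deposited scale, most MRP transcripts were lower in IRKO precipitates, by modest amounts; as a share of each library's total count, fewer were. All 78 genes passed the filter on low values, and at a limma adjusted p under 0.05, adjusted over all 14698 genes, 49 fell, 1 rose and 28 did not pass. That is 62.8% lower, where 29.0% of all genes tested were lower, and 1.28% higher, where 26.6% of all genes were. The median log2 change of the MRP genes was −0.57, with quartiles of −0.80 and −0.26, and the median of all genes was 0.02. The changes ran from −1.38 to 0.49, and 8 genes were at least 2-fold lower. In 55 of the 78 genes (70.5%) every IRKO value lay below both control values, against 34.8% of all genes. In 3 genes every IRKO value lay above both controls, against 32.8% of all genes, and in 20 the groups overlapped. The log2 change lay above the median of all genes in only 7 of the 78.

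**Figure D1:**
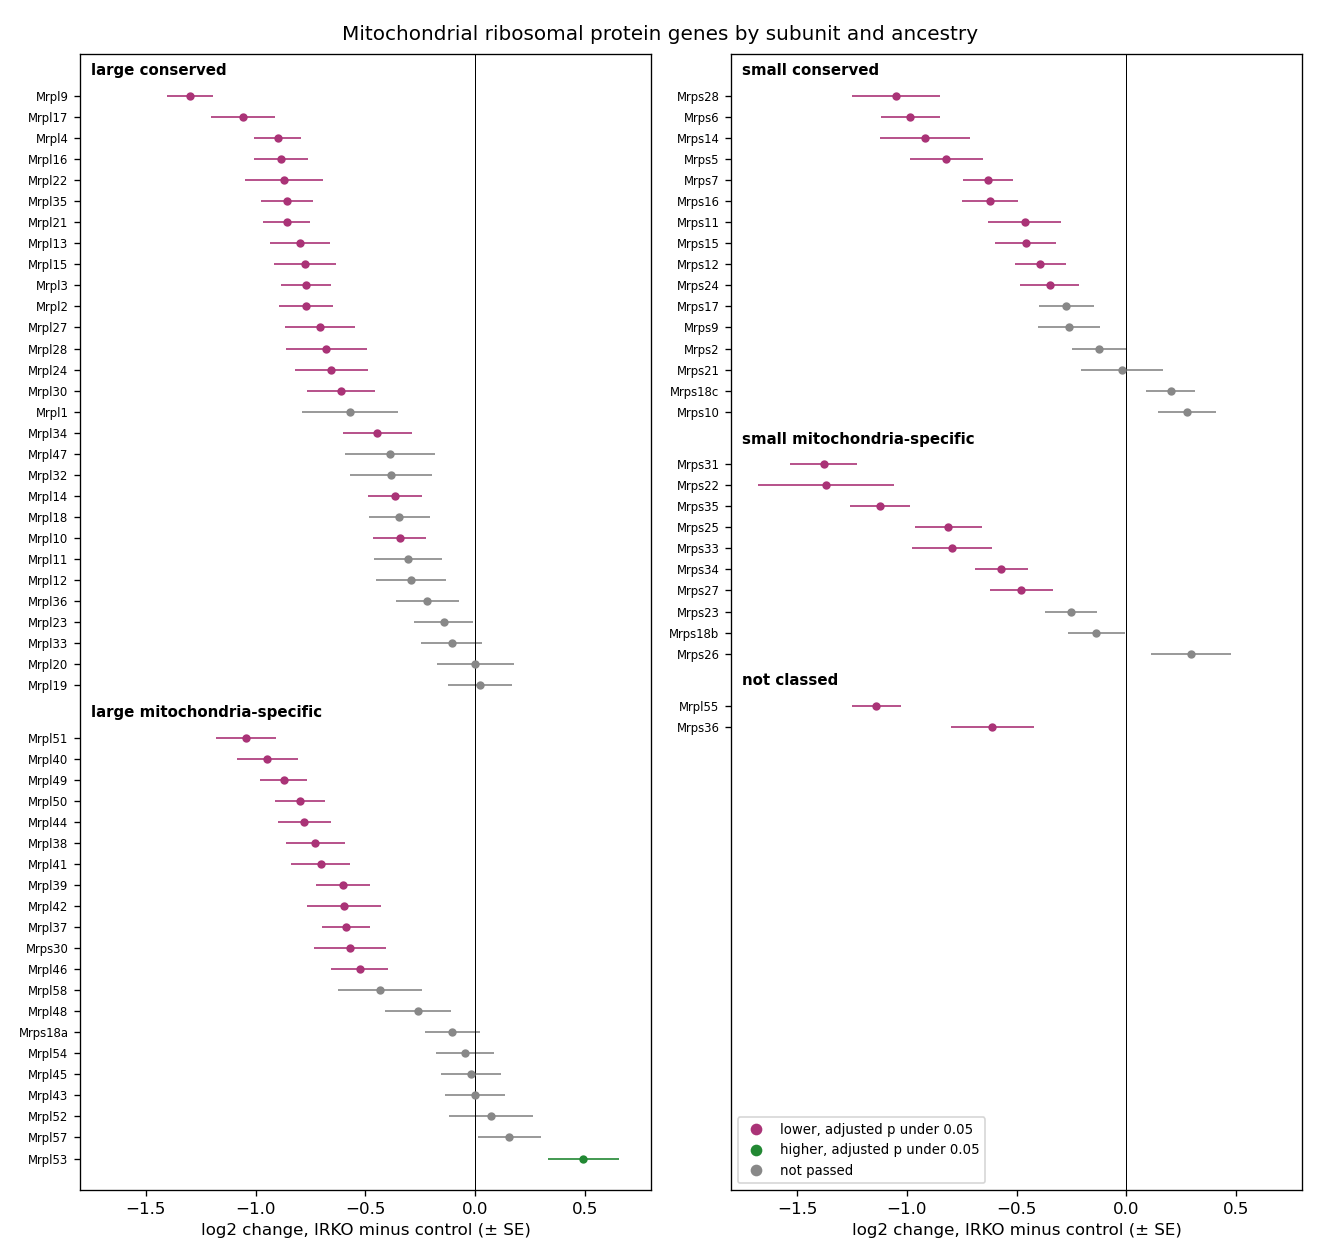
Log2 change of each of the 78 MRP genes, IRKO minus control, with its standard error, sorted within classes by subunit and by whether the protein has a bacterial counterpart. The points run from −1.38 (Mrps31) to 0.49 (Mrpl53), and 49 of them are coloured as lower, 1 as higher and 28 as not passing.

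On the deposited scale the shift was present in each IRKO library. Relative to the mean of the controls on the log2 scale, the median MRP gene stood at −0.46, −0.44, −0.51 and −0.72 in IRKO replicates 1 to 4, and at −0.04 and 0.04 in the controls. IRKO replicate 4 was the lowest of the IRKO libraries in 59 of the 78 genes, and without it the median change was −0.47, with 45 genes lower and 1 higher. The controls were close to each other, with a median difference of 0.09 (replicate 2 minus 1, log2) and a range from −0.36 to 0.51. Summed over all MRP genes, the normalized count was 72620 and 77203 in the controls and 55563, 56207, 54381 and 45393 in IRKO. The IRKO mean was thus 0.706 of the control mean, and no IRKO sum reached either control sum. As a share of all normalized counts of the library, the same sums were 0.382% and 0.419% in the controls and 0.389%, 0.391%, 0.392% and 0.336% in IRKO. On that measure IRKO replicates 1 to 3 lay between the controls and replicate 4 below both. Without control replicate 2, the library with the most red blood cell and liver RNA, the MRP median was −0.54. Without control replicate 1 it was −0.57. Fewer MRP genes were lower in either fit, but each leaves 1 control and fewer of all genes were lower too.

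**Figure D2:**
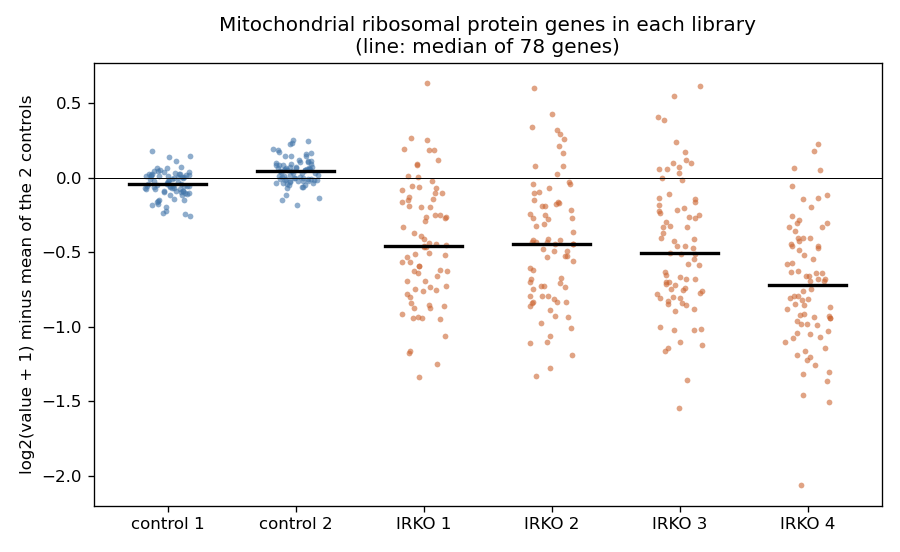
For each library, the log2(value + 1) of the 78 MRP genes minus the mean of the 2 controls, with a line at the median. The lines of IRKO replicates 1 to 3 lie between −0.51 and −0.44 and that of replicate 4 at −0.72, below both controls.

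How many MRP genes were lower depends on how the libraries are scaled. Scaled to equal library totals, a setting added after seeing the data, 24 MRP genes were lower and 10 higher, with a median of −0.15, while 2441 of all 14698 genes were lower and 6807 higher, with a median of 0.43. The 10 largest falls, picked as such on the deposited scale, were lower in that setting too (−0.96 for Mrps31 to −0.53 for Mrpl40). That choice favours this outcome. Quantile normalization moved the median of all genes to 0.12 and that of the MRP genes to −0.37, with 36 MRP genes lower and 2 higher. Of all 14698 genes 3559 were lower and 4527 higher in that setting. Scaling the libraries so that the homeostatic microglia markers averaged the same moved the median of all genes to −1.51 and that of the MRP genes to −2.11. In that scaling all 78 MRP genes were lower, as were 12055 of the 14698 genes. The MRP median minus that of all genes was −0.59 as deposited and −0.49 under quantile normalization. Scaling to totals or to markers multiplies each library by a single factor and so leaves this distance nearly as it was by construction.

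The small subunit held the 2 largest falls. Its 26 genes had a median log2 change of −0.47, with 17 lower and none higher. Mrps31 (chromosome 8, 22410449 to 22429669), a protein found only in mitochondrial ribosomes, had control values of 533 and 607 normalized counts and 251, 234, 194 and 200 in IRKO. Every IRKO library was below 0.5 of the lower control, and the log2 change was −1.38 ± 0.153 (limma SE, adjusted p = 8.78e-05). Mrps22 (chromosome 9, 98588730 to 98601679), another mitochondria-specific protein, had the lowest mean count of the 78 genes (not corrected for length). Its counts were 133 and 169 in the controls and 71.3, 59.1, 73.8 and 35.1 in IRKO. The groups did not overlap, but the error was the widest among the genes that passed, with a log2 change of −1.37 ± 0.309 (limma adjusted p = 0.00486). Mrps35 (chromosome 6, 147042728 to 147070906), also mitochondria-specific, had counts of 743 and 838 in the controls and 411, 368, 357 and 319 in IRKO, a fall of 2.17-fold (limma adjusted p = 0.000147).

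Among small subunit proteins with a bacterial counterpart, 10 of 16 fell and none rose, against 7 of 10 and none for the mitochondria-specific ones. Mrps28 (chromosome 3, 8802146 to 8923857) had counts of 529 and 561 in the controls and 337, 286, 250 and 198 in IRKO (log2 change −1.05 ± 0.199, limma adjusted p = 0.00190). Mrps6, the counterpart of bacterial S6, had 1188 and 1076 in the controls and 616, 634, 556 and 491 in IRKO (log2 change −0.98 ± 0.134, limma adjusted p = 0.000295). The Mrps6 gene (chromosome 16, 92058336 to 92112227) shares 29138 bases with Slc5a3, a transporter gene that itself rose (0.38), so reads of the 2 cannot be told apart with certainty. Mrps12, the counterpart of bacterial S12 at the decoding centre, had 1637 and 1773 in the controls and 1416, 1361, 1238 and 1190 in IRKO, a smaller change of −0.39 ± 0.115 (limma adjusted p = 0.0171). That call was lost under quantile normalization (−0.14, limma adjusted p = 0.311) and without control replicate 2 (−0.33, adjusted p = 0.119), and the change turned to 0.03 scaled to library totals. Mrps10 had 227 and 233 in the controls and 264, 282, 302 and 270 in IRKO, all above both controls, but its change of 0.28 ± 0.131 did not pass (limma adjusted p = 0.101).

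**Figure D3:**
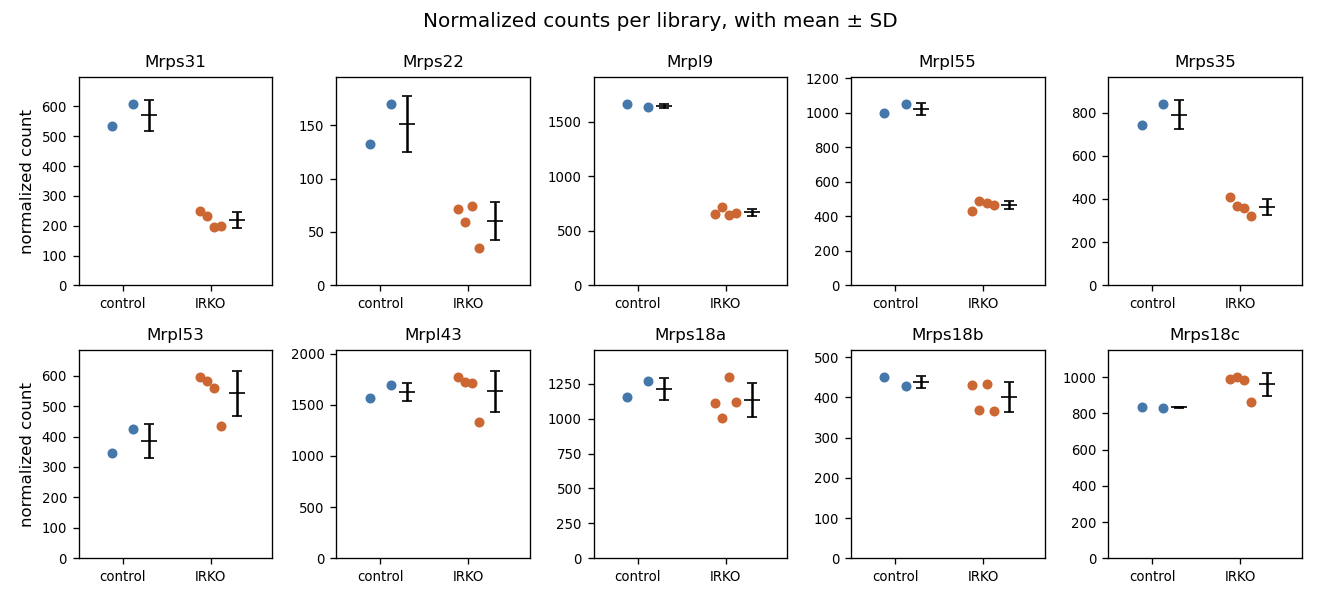
Normalized counts of 10 MRP genes in each library, with the mean and SD of each group beside the points (n = 2 controls, n = 4 IRKO). Mrps31, Mrps22, Mrpl9, Mrpl55 and Mrps35 show no overlap, Mrpl53 lies higher in IRKO, and Mrpl43, Mrps18a and Mrps18b overlap between the groups.

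The large subunit, with 51 genes, had a median of −0.59, with 31 lower and 1 higher. Its 29 genes with a bacterial counterpart gave 18 lower and none higher (median −0.61), and its 21 mitochondria-specific genes gave 12 lower and 1 higher (median −0.57). Mrpl9 (chromosome 3, 94443154 to 94448708), the counterpart of bacterial L9, had control values of 1661 and 1636 normalized counts and 652, 722, 643 and 662 in IRKO. Both groups were tight around their means, and the log2 change of −1.30 ± 0.106 had the smallest p-value of the MRP genes (limma adjusted p = 1.29e-05). Mrpl55 (chromosome 11, 59202486 to 59206138) had 1000 and 1050 in the controls and 431, 489, 476 and 464 in IRKO, a fall of 2.20-fold (limma adjusted p = 4.18e-05). Mrpl17 (chromosome 7, 105803782 to 105811087), the counterpart of bacterial L17, had 1092 and 1019 in the controls and 471, 607, 520 and 440 in IRKO (log2 change −1.06 ± 0.145, limma adjusted p = 0.000300). Mrpl51 and Mrpl40, both mitochondria-specific, changed by −1.04 ± 0.138 and −0.95 ± 0.139, with no overlap between the groups (limma adjusted p = 0.000244 and 0.000464).

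Single proteins with a known place on the ribosome are given next. Mrpl2, Mrpl3, Mrpl16 and Mrpl27, counterparts of bacterial proteins near the peptidyl transferase centre, changed by −0.77, −0.77, −0.88 and −0.71 (log2), and all passed. Mrpl4 (−0.90) and Mrpl22 (−0.87), which line the tunnel, and Mrpl24 (−0.66), at its exit, fell, whereas Mrpl23 (−0.14) and Mrpl47 (−0.39), also at the exit, did not pass. Mrpl45, which holds the ribosome to the inner membrane at the tunnel exit, had counts of 1258 and 1353 in the controls and 1390, 1377, 1360 and 1059 in IRKO. Its groups overlapped and its log2 change of −0.02 ± 0.137 did not pass (limma adjusted p = 0.922), turning to 0.22 under quantile normalization and to 0.40 scaled to library totals. Mrpl10, the anchor of the stalk where translation factors dock, fell (−0.34 ± 0.122, limma adjusted p = 0.0367). Its partner Mrpl12, the counterpart of bacterial L7/L12, stood at −0.29 ± 0.159 and Mrpl11 at −0.31 ± 0.154, neither passing (limma adjusted p = 0.144 and 0.118), and Mrpl12 turned to 0.12 scaled to library totals. These proteins were chosen with the values known, and their places on the ribosome were not compared by a test.

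The rise was in Mrpl53 (chromosome 6, 83109108 to 83109932), a mitochondria-specific protein of the large subunit. Its normalized counts were 345 and 424 in the controls and 594, 582, 561 and 433 in IRKO, so that IRKO replicate 4 lay just above control replicate 2. The log2 change was 0.49 ± 0.162 (limma adjusted p = 0.0279). The call was lost without control replicate 1 (0.34, adjusted p = 0.206), without IRKO replicates 1, 2 or 3 (adjusted p = 0.0567 to 0.0656) and with no variance trend (adjusted p = 0.0532), and the change turned to −1.05 scaled to the microglia markers. Mrpl20, Mrpl43 and Mrpl45 had the changes nearest 0. Mrpl43, for example, had 1563.5 and 1690 in the controls and 1768, 1718, 1711 and 1332 in IRKO. The sign of all 3 is not settled: under quantile normalization they stood at 0.25, 0.25 and 0.22, and scaled to library totals at 0.42, 0.41 and 0.40.

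The most abundant MRP transcripts by mean normalized count were Mrps33, Mrpl20, Mrpl48 and Mrpl43, a comparison not corrected for transcript length. Mrps33, mitochondria-specific, fell from 2372 and 2604 in the controls to 1679, 1725, 1338 and 1088 in IRKO (log2 change −0.79 ± 0.184, limma adjusted p = 0.00550), a call lost when scaled to library totals (−0.38). The other three did not pass. Mrpl48 turned from −0.26 to 0.16 scaled to library totals, and it shares 727 bases with Rab6a, a gene that rose (0.96). The mean counts of the genes that fell ran from 90.3 to 1801 with a median of 690, against 190 to 1788 with a median of 760 for those that did not pass.

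Mrps18a, Mrps18b and Mrps18c are 3 mammalian copies of bacterial S18, of which Mrps18a sits in the large subunit despite its name. None of them passed limma's test. Mrps18a (chromosome 17, 46111004 to 46128908) had 1156 and 1268 in the controls and 1109, 1004, 1295 and 1117 in IRKO, a change of −0.10 ± 0.126. It shares 6871 bases with Rsph9, a cilium gene that fell (−2.03), and it turned to 0.13 under quantile normalization and to 0.31 scaled to library totals. Mrps18b (chromosome 17, 35910380 to 35916440) had 450 and 429 in the controls and 432, 370, 434 and 367 in IRKO, a change of −0.14 ± 0.130 that turned to 0.28 scaled to library totals. Mrps18c (chromosome 5, 100798759 to 100804467) had 836 and 833 in the controls and 993, 999.5, 987 and 866 in IRKO. Every IRKO value of Mrps18c lay above both controls, with a change of 0.20 ± 0.110 (limma adjusted p = 0.147) that passed under quantile normalization (0.40, adjusted p = 0.0117) and scaled to library totals (0.62), and was −1.34 scaled to the microglia markers.

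Several proteins have a role beyond building the ribosome, or a name that misplaces them. Mrps30, which like Mrps18a belongs to the large subunit, had 389 and 381 in the controls and 306, 283, 234 and 221 in IRKO (log2 change −0.57 ± 0.163, limma adjusted p = 0.0149). Without control replicate 1 or 2 its adjusted p was 0.0747 or 0.0598, and scaled to library totals it was 0.390. Mrpl44, which carries a fold of the RNase III family, had 629 and 733 in the controls and 408, 410, 378 and 386 in IRKO (log2 change −0.78 ± 0.121, limma adjusted p = 0.000613). Mrpl58, a peptidyl-tRNA hydrolase that frees stalled ribosomes, stood at −0.43 ± 0.190 with overlapping groups and did not pass (limma adjusted p = 0.0777). Mrps36, now assigned to the 2-oxoglutarate dehydrogenase complex of the tricarboxylic acid cycle, had 596 and 646 in the controls and 432, 456, 468 and 295 in IRKO. It fell (log2 change −0.61 ± 0.190, limma adjusted p = 0.0220), but without control replicate 1 or 2 its limma adjusted p was 0.0643 or 0.110, and under quantile normalization or scaled to library totals it was 0.0789 or 0.367.

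The sums of the subunits were also compared within each library. The summed count of large subunit genes over that of small subunit genes was 2.31 and 2.29 in the controls and 2.24, 2.32, 2.33 and 2.29 in IRKO. The IRKO means were 0.706 of the control mean for the large subunit and 0.708 for the small one. A difference between subunits or between ancestry classes was not tested.

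Ribosomal proteins of the mitochondrion that carry other symbols were mostly lower too. Dap3, a GTP-binding protein of the small subunit, had 2289 and 2523 in the controls and 1003, 1039, 887 and 724 in IRKO, a change of −1.41 ± 0.154 (limma adjusted p = 8.17e-05). Aurkaip1, also of the small subunit, fell 2.03-fold. In this list of 5 genes 4 fell and none rose. Its median was −0.75, and −0.55 without control replicate 2, where fewer of the list fell. Ptcd3 (0.04 ± 0.122) did not pass.

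As deposited, lists of genes that work with the mitochondrial ribosome are read against the 29.0% lower and 26.6% higher of all genes. Scaled to library totals, 2441 of all 14698 genes were lower and 6807 higher, so counts in that scaling are read against those. The number lower was 2 of 5 subunits with other symbols, 5 of 20 synthetases and 4 of 25 assembly factors. It was 3 of 19 for mitochondrial DNA expression, 15 of 37 for complex I and 15 of 39 for complexes III to V. In that scaling the medians of the translation factors and of mitochondrial DNA expression turned to 0.03 and 0.04. Of 16 translation factors 6 fell (37.5%, near the share of all genes), none rose and 10 did not pass (median −0.39). Gfm1 and Tufm, which drive elongation, showed the largest of these falls. Tufm had 3311 and 2870 in the controls and 1025, 1139, 1046 and 1092 in IRKO (log2 change −1.52 ± 0.110, limma adjusted p = 6.04e-06), and Gfm1 fell 3.12-fold. Mtif2, an initiation factor, stood at 0.22 ± 0.137 and did not pass. Of 20 mitochondrial aminoacyl-tRNA synthetase genes, which load tRNAs with amino acids, 12 fell and none rose (median −0.51). Fars2, for phenylalanine, had 1352 and 1219 in the controls and 311, 269, 274 and 302 in IRKO, a fall of 4.45-fold (limma adjusted p = 1.47e-06), and Vars2, for valine, fell 1.91-fold.

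Among 25 assembly factors of the mitochondrial ribosome 12 fell and none rose (median −0.42). Fewer fell without control replicate 2, a fit that leaves 1 control and in which fewer of all genes fell too. Mpv17l2, an inner membrane protein linked to large subunit assembly, had 2645 and 2149 in the controls and 475, 459, 484 and 503 in IRKO, a fall of 4.99-fold (limma adjusted p = 8.52e-07). Mtg2, a GTPase, fell 2.49-fold. Of 19 genes of mitochondrial DNA maintenance and expression 8 fell (42.1%) and none rose (median −0.38). Fewer of them fell without control replicate 1 or 2, fits that leave 1 control and in which fewer of all genes fell too. Hsd17b10, a subunit of mitochondrial RNase P and also a dehydrogenase, fell 3.06-fold, and Supv3l1, an RNA helicase, 2.18-fold. Tfam, which packages mitochondrial DNA, stood at −0.44 ± 0.190 and did not pass (limma adjusted p = 0.0751).

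Of 11 regulators of nuclear-encoded mitochondrial genes 4 fell (36.4%) and 3 rose (27.3%), shares near those of all genes (29.0% and 26.6%), with a median of 0.08. Gabpa, a factor that binds many promoters of this kind, had 414 and 367 in the controls and 228, 235, 212 and 216 in IRKO (log2 change −0.81 ± 0.132, limma adjusted p = 0.000835). Gabpb1, of the same list, rose as deposited (0.59 ± 0.170, limma adjusted p = 0.0160). Ppargc1a, a coactivator of mitochondrial genes, fell 1.80-fold (limma adjusted p = 0.000635). Its relative Ppargc1b rose (1.24 ± 0.193), as did Myc (1.38 ± 0.302), and both turned to −0.29 and −0.14 scaled to the microglia markers. Nrf1, another factor of this class, stood at −0.03 ± 0.148 and did not pass.

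The respiratory chain, which the mitochondrial ribosome serves, gave counts close to those of the MRP genes. Of 37 complex I subunit genes 24 fell and none rose (64.9% lower, median −0.70). Of 39 genes for subunits of complexes III to V 26 fell and 1 rose (66.7% lower, median −0.53). Fewer were lower without control replicate 2, a fit that leaves 1 control and in which fewer of all genes were lower too. Cytosolic ribosomal protein genes stood on the other side as deposited: of 84 tested, 39 rose, 2 fell and 43 did not pass (median 0.39). The 2 that fell, Rps27l and Rpl7l1, are relatives of core proteins rather than standard subunits, and both turned positive scaled to library totals (0.03 and 0.09). Rps28, a small subunit protein, had 3144 and 3832 in the controls and 7210, 6977, 8161 and 6627 in IRKO (log2 change 1.06 ± 0.136, limma adjusted p = 0.000209). Scaled to the microglia markers, the cytosolic list turned to −1.14, with 78 genes lower and none higher, and the MRP median was −2.11. That scaling multiplies each library by a single factor, so the distance between these lists stays nearly as it was by construction. Without control replicate 1, a fit that leaves 1 control, fewer cytosolic genes rose, as did fewer of all genes. These differences between lists were not tested.

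**Figure D4:**
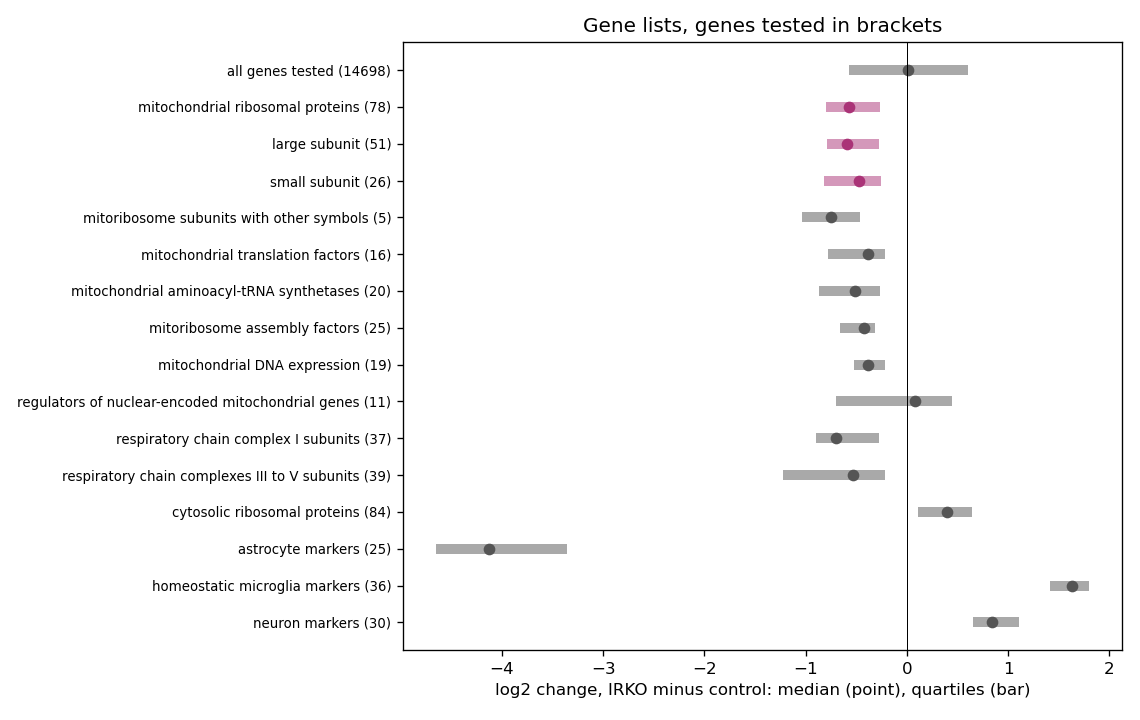
Median (point) and quartiles (bar) of the log2 change, IRKO minus control, for the MRP genes, related gene lists, cell type markers and all genes tested, with the number of genes in brackets. The MRP median of −0.57 lies below the 0.02 of all genes and the 0.39 of cytosolic ribosomal protein genes, and well above the −4.13 of astrocyte markers.

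Many MRP genes have a close neighbour on the chromosome. In 29 of them the nearest non-overlapping gene with deposited counts began or ended less than 1000 bases away. Genes without deposited counts were not considered. Of those 29 MRP genes 21 fell (72.4%, against 62.8% of all MRP genes). Of the 27 neighbours that are not MRP genes themselves, 11 fell (40.7%, against 29.0% of all genes) and 5 rose (18.5%, against 26.6%). Mrpl46 and Mrps11, MRP genes 41 bases apart on chromosome 7, changed by −0.53 ± 0.129 and −0.46 ± 0.166, both passing. Mrps12 lies 135 bases from Sars2, the mitochondrial seryl-tRNA synthetase gene, which fell with it (−0.87 ± 0.166, limma adjusted p = 0.00196). Mrpl49 lies 191 bases from Fau, which encodes a cytosolic ribosomal protein, and the 2 went opposite ways as deposited. Mrpl49 had 1226 and 1225 in the controls and 641, 708, 699 and 630 in IRKO (log2 change −0.87 ± 0.109, limma adjusted p = 0.000171). Fau had 9006 and 9862 in the controls and 21318, 20764, 21377 and 15929 in IRKO (log2 change 1.06 ± 0.165, limma adjusted p = 0.000620), a change of −0.48 scaled to the microglia markers. The pairs named here were chosen after their values were seen. In all, 20 MRP genes overlap another gene counted in the table, and strand use is not given in the sources used here, so reads there cannot be assigned with certainty.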

How the data were processed

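RNA from 6 RiboTag precipitates was measured by sequencing. Per the submitters' processing notes, Bowtie2 and the mouse build GRCm38.p6 were used; the counting tool, annotation and strandedness are each not given in the sources used here. Deposited by the authors was a signal per gene, normalized counts that equal reads divided by 1 size factor per sample: 100% of values were whole multiples of the value of 1 read, within 0.05 reads. In IRKO replicate 1 that step was 0.991, near 1, but values such as 71.321 for Mrps22 were not whole numbers. A chi-square of the reads per degree of freedom of 17.6 to 38.7 for pairs within a group showed no duplicated library.

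Genes with at least 10 in at least 2 samples were fitted as log2(value + 1) with limma 3.58.1 in R 4.3.3 (IRKO minus control, variance trend, two-sided, Benjamini-Hochberg over 14698 genes, threshold 0.05). A pseudocount of 1 understates changes of low genes. The fit was run on simulated data in which few genes changed, up or down at random. Those data hold no shift between groups like the one here, so the run cannot judge the scaling between libraries. Coordinates came from RefSeq, where 18542 symbols matched. RNA-level comparison between genes was not corrected for length.

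The genes and lists were chosen with earlier results of these data known; the lists came from textbook knowledge, and 1 of 17 translation factors had no matching row. Named genes were the 10 largest falls and up to 10 rises without overlap, the 4 most abundant, the 3 nearest 0, Mrps18 copies, genes of known role, and the 2 of smallest p per direction in each list; others named were chosen after their values were seen. Alternatives were pseudocounts of 0.5 and 5, no filter, a filter at 50, TMM, quantile and microglia-marker scaling, no trend, sample weights, edgeR 4.0.16 and DESeq2 1.42.0 on recovered reads, a replicate block, and leaving out each sample. EdgeR on the 5 samples other than IRKO replicate 1 and scaling to equal library totals were added after seeing the data.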

Additional observations from a re-analysis of the deposited data

Results flagged for a closer look

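In 9 of the 78 MRP genes a single IRKO library stood apart from the other 3, by the gap to its nearest neighbour relative to the range of the group; chance alone flags about 5% of groups. In 7 of the 9 it was IRKO replicate 4, at the low end. Its normalized counts, each followed by the next lowest IRKO value, were 954 against 1319 for Mrpl12, 567 against 726 for Mrpl18 and 834 against 1164 for Mrpl42. They were 1332 against 1711 for Mrpl43, 1059 against 1360 for Mrpl45, 477 against 582 for Mrpl46 and 866 against 987 for Mrps18c. At the high end, Mrpl4 had 974 in IRKO replicate 3 against 874, and Mrpl39 had 633 in IRKO replicate 2 against 578. Of these genes Mrpl4, Mrpl39, Mrpl42 and Mrpl46 fell, and the other 5 did not pass.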

How the results depend on the processing

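Across 20 alternatives, 24 of the 49 MRP genes that fell did so in every one, among them all 10 of the largest falls (highest limma, edgeR or DESeq2 adjusted p 0.0435), and 47 of 78 stayed below 0 throughout. For the 43 named genes, 784 of 860 values kept direction and call. The causes of the changes below were not tested. With edgeR and with DESeq2, 48 MRP genes were lower and 1 higher.

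Leaving out each sample in turn, the number of MRP genes higher, and of large subunit genes higher, ranged from 0 to 1. In the same runs lower counts ranged from 2 to 4 for subunits with other symbols, 7 to 12 for assembly factors, 4 to 7 for mitochondrial DNA expression (0 to 1 higher), 0 to 2 for cytosolic ribosomal proteins (19 to 43 higher) and 17 to 27 for complexes III to V. Runs that leave out a control sample keep only 1 control, and in them fewer of all genes were called lower or higher than with all samples. Medians ranged from −0.58 to −0.46 for synthetases and from −0.52 to −0.42 for assembly factors. Mrpl20, Mrpl43 and Mrpl45 ranged from −0.19 to 0.19, −0.059 to 0.092 and −0.070 to 0.077, above 0 without control replicate 2 and without IRKO replicate 4.

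Under quantile normalization the MRP median was −0.37 with 2 higher, the large subunit median −0.39, and the small subunit median −0.32 with 1 higher. Of all 14698 genes 3559 were lower and 4527 higher in that setting. There, 2 subunits with other symbols were lower, and medians were −0.44 for synthetases, −0.28 for mitochondrial DNA expression (1 higher), 0.28 for regulators, 0.72 for cytosolic ribosomal proteins (68 higher, 0 lower), −0.42 for complex I (1 higher) and −0.21 for complexes III to V (7 higher). Mrpl20, Mrpl43, Mrpl45 and Mrps18a stood at 0.25, 0.25, 0.22 and 0.13.

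Scaled to the microglia markers, 78 MRP genes were lower and 0 higher (median −2.11), with 51 large (−2.13, 0 higher) and 26 small subunit genes lower (−2.01). Medians there were −2.29 for subunits with other symbols, −1.92 for translation factors (16 lower), −2.04 for synthetases (20 lower), −1.96 for assembly factors (25 lower), −1.92 for mitochondrial DNA expression (19 lower) and −1.46 for regulators (9 lower, 0 higher). They were −1.14 for cytosolic ribosomal proteins (78 lower, 0 higher), −2.24 for complex I (37 lower) and −2.07 for complexes III to V (0 higher). Mrpl53, Mrps18c, Ppargc1b, Myc, Rps28 and Fau turned to −1.05, −1.34, −0.29, −0.14, −0.48 and −0.48.

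Scaled to library totals, an alternative added after seeing the data, 24 MRP genes were lower and 10 higher (median −0.15), with 18 and 7 in the large (−0.17) and 6 and 3 in the small subunit (−0.055). Of all 14698 genes 2441 were lower and 6807 higher in that scaling. There, lower and higher counts were 2 and 1 for subunits with other symbols (−0.34), 5 and 1 for synthetases (−0.094), 3 and 3 for mitochondrial DNA expression (0.035), 0 and 72 for cytosolic ribosomal proteins (0.81), 15 and 1 for complex I (−0.28) and 15 and 7 for complexes III to V (−0.12). Translation factors had 2 higher (0.030), assembly factors 4 lower (−0.0086) and regulators 7 higher (0.50). Mrpl20, Mrpl43, Mrpl45, Mrpl48, Mrpl12, Mrps12, Mrps18a, Mrps18b, Rps27l and Rpl7l1 turned to 0.42, 0.41, 0.40, 0.16, 0.12, 0.026, 0.31, 0.28, 0.031 and 0.085.

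With no variance trend 0 MRP genes, and 0 of the large subunit, were higher, and with the filter at 50 the regulator median was 0.19. Replicate numbers are shared by only 2 pairs, whose deviations correlated at −0.08 and 0.08, and do not pair the samples. With a replicate block 41 MRP genes were lower and 1 higher, 2 subunits with other symbols, 7 synthetases (median −0.57) and 1 cytosolic gene were lower, and Mrpl20, Mrpl43 and Mrpl45 stood at 0.15, 0.10 and 0.085. Under the block the calls of Mrps12 (−0.29, limma adjusted p = 0.0952) and Mrps30 (−0.39, 0.0914) were lost. Mrpl20 stood at 0.016 with TMM, 0.066 with sample weights, 0.011 with edgeR, 0.0077 with DESeq2 and 0.0033 with edgeR on 5 samples; Mrpl43 stood at 0.014, 0.036, 0.014 and 0.011 in the first 4 of these, and Mrpl45 at 0.022 with sample weights. Mean counts of MRP genes ran from 90.3 to 1801, and Mrps22, with the lowest, had the largest standard error (0.309).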
